A study of Mus musculus with 6 samples.

Results

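Surface proteins used to recognise and sort stromal stem cells are encoded by the 10 genes followed here, namely Lepr, Pdgfra, Pdgfrb, Nt5e, Thy1, Eng, Ly6a, Cd44, Mcam and Itgav. Acetylated histone H3 (H3ac) had been measured in regions of the mouse genome, and a region was taken as a member when it overlapped 1 of these gene bodies extended by 5 kb on both sides (GENCODE release M21, mm10). This gave 18 of the 24431 regions. None of the 10 genes was without a region, and each had a region over its annotated start site. The data are CUT&RUN profiles, in which an antibody tethers a nuclease to the marked chromatin and the DNA it cuts loose is sequenced, from cultured mesenchymal stem cells (MSCs), which are stromal cells able to form bone, cartilage and fat. There were 3 groups of 2 libraries each. Young MSCs were from mice aged 3 to 5 months and Old MSCs from mice aged 18 to 22 months, neither of them treated. OldAcetate MSCs were from mice aged 18 to 22 months and were exposed to sodium acetate at 5 mM over 3 days. All 3 groups shared culture at 2% oxygen in medium with serum and antibiotics. Strain, sex and tissue of origin are not given in the sources used here, nor is it said whether the libraries of a group came from separate mice or cultures, so the p-values below measure the spread between these libraries, which may be technical.

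MSCs have no single marker that defines them and are recognised by a panel of surface proteins together with the lack of blood and endothelial markers. Pdgfra and Pdgfrb are the receptor tyrosine kinases for platelet-derived growth factors, Lepr is the leptin receptor that marks stromal cells around marrow vessels, and Ly6a (Sca-1) is a lipid-anchored protein used with Pdgfra to isolate mouse MSCs. Nt5e (CD73), Thy1 (CD90) and Eng (CD105) form the classical panel for cultured MSCs. Cd44, Mcam (CD146) and Itgav (CD51) bind matrix or neighbouring cells. Acetylation of histone H3 marks active promoters and enhancers, and broad stretches of it often lie over genes that a cell type transcribes strongly.

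Values were read as RPM, the reads in a region relative to all reads of the library. This assumes that no other factor, such as one from yeast DNA spiked into the reactions, entered the values, which is not stated. On that reading the libraries held between 2163351 and 3039481 reads, and the 18 member regions held between 1412 and 2675 of them. With the same assumption, the share of reads in all regions was 57.8% to 64.8% in Young, 45.9% to 49.9% in Old and 56.3% to 57.3% in OldAcetate. On the values as given, most regions moved together. Each comparison is therefore given for the values as given and for values scaled so that the libraries have the same median over regions. The scaling removed a median shift of -0.35 on the log2 scale in Old vs Young and of 0.24 in OldAcetate vs Old, and a scaled fold change is a change relative to that shift. In bulk chromatin, fewer cells carrying the mark at a gene and less of the mark per cell cannot be told apart.

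H3ac was not laid out alike over the 10 genes. It covered 100% of the short gene bodies of Thy1 and Ly6a, 73.5% of Pdgfrb, 67.0% of Cd44, 56.6% of Nt5e and 47.3% of Pdgfra, but only 2.65% of Lepr, a gene body of 97949 bp. Eng (37.6%), Itgav (31.6%) and Mcam (24.6%) lay in between. Mcam had its single region mostly upstream of the start site, at chr9:44124501-44136500. The widest member region, 46.5 kb at chr2:102859501-102906000, began upstream of the Cd44 start site and ran into its gene body. The start-site regions of Pdgfrb (36 kb, chr18:61038501-61074500), Pdgfra (24 kb, chr5:75142501-75166500) and Itgav (24 kb, chr2:83722001-83746000) were also broad. In all, 4 of 18 member regions reached 20 kb, against 6.99% of all regions, and no test was made of this difference. Lepr had the narrowest start-site region, 5 kb at chr4:101715001-101720000.

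**Figure D1:**
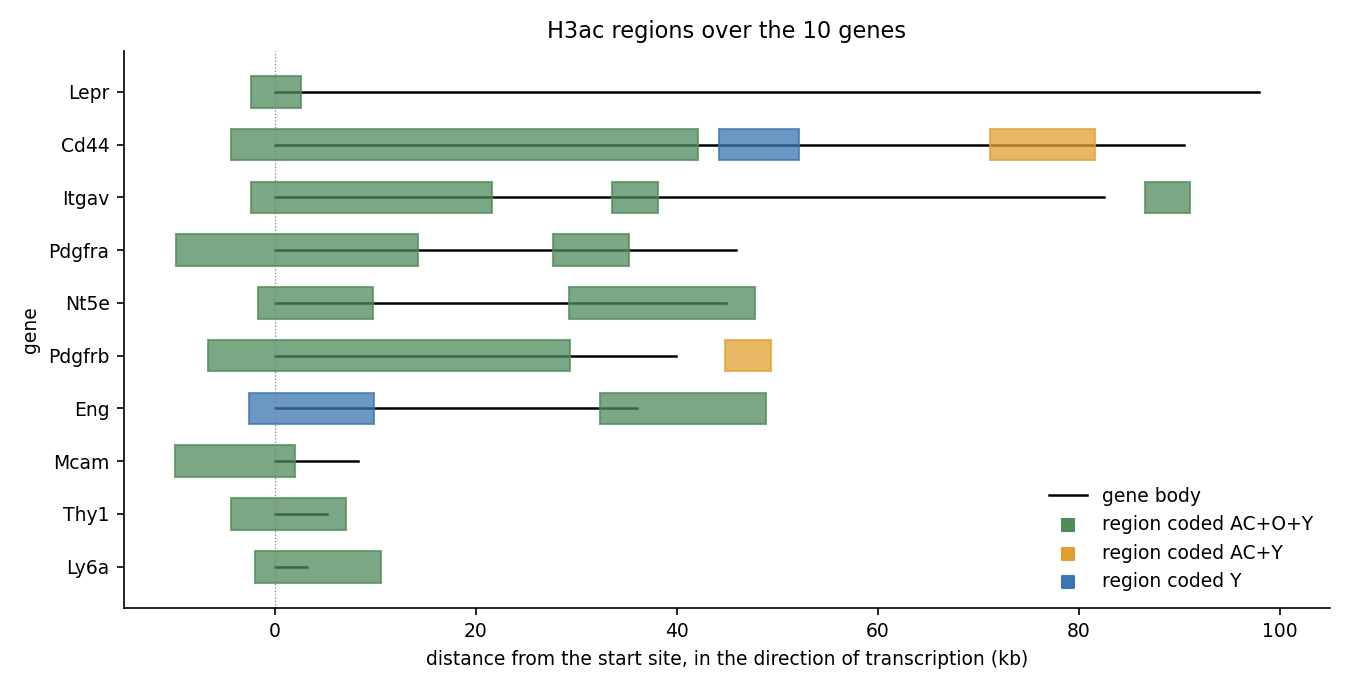
H3ac regions (boxes) drawn over the 10 gene bodies (black lines), each aligned at its annotated start site and turned so that transcription runs to the right, with distance in kb. Box colours give the code in the region names: 14 regions coded AC+O+Y, 2 coded AC+Y and 2 coded Y. The Pdgfrb start-site region fills most of its gene, the Cd44 start-site region is the widest box at 46.5 kb, and Lepr has a single box of 5 kb at the start of the longest gene.

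A code made of the letters Y, O and AC stands in the authors' name of each region. No label explains it, and it was taken to list the groups Young, Old and OldAcetate. Of the 18 member regions, 14 were coded AC+O+Y (80.6% of all regions), 2 were coded AC+Y (12.1%) and 2 were coded Y (4.66%). The 2 coded AC+Y were the region downstream of Pdgfrb and the Cd44 body region farthest from the start site, and the 2 coded Y were the Eng start-site region and the other Cd44 body region. The Eng start-site region, although coded Y, held 37 to 57 reads in the Old libraries and 52 to 63 in the OldAcetate libraries, so the code does not mean that the mark was absent there. If the code lists the groups in which a region was detected, regions coded AC+Y or Y were listed through groups other than Old. At these regions a lower value in Old, and at those coded AC+Y a higher value in OldAcetate, is then partly set in advance.

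The promoter sequences of 4 members are shown because they span the range of CpG content among the members, with Pdgfra and Cd44 having called changes at the start site and Eng the lowest level there per kb. Each runs from 250 bases before to 50 bases after the start of the gene (RefSeq, GRCm38.p6), 5′ to 3′ on the gene's strand, with each CpG pair in capitals. They lie at chr5:75152001-75152300 (+ strand) for Pdgfra, chr2:102901616-102901915 (- strand) for Cd44, chr2:32646345-32646644 (+ strand) for Eng and chr9:44134408-44134707 (+ strand) for Mcam, all inside the start-site region of the gene.
Pdgfra: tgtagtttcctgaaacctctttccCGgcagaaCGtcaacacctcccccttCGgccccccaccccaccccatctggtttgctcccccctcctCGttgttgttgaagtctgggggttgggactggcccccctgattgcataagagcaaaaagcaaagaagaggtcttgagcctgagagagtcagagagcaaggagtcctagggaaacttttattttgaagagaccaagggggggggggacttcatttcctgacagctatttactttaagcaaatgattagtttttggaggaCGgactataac
Cd44: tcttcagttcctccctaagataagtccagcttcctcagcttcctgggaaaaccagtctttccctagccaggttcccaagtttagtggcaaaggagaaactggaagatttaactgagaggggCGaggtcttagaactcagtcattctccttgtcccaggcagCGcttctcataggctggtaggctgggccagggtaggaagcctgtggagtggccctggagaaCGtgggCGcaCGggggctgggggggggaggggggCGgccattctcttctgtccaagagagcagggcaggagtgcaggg
Eng: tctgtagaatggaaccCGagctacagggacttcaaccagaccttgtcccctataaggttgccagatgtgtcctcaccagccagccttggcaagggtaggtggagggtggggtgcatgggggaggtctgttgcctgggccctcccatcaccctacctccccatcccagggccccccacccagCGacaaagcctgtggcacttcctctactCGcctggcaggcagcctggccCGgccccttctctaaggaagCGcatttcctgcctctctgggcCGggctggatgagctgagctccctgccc
Mcam: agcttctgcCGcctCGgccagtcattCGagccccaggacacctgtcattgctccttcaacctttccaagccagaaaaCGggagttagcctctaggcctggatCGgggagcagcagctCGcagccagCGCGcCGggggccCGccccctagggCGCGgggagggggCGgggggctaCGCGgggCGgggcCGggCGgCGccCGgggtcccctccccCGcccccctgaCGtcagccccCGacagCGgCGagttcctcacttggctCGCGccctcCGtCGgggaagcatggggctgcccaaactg
The Pdgfra promoter held 5 CpG pairs and those of Cd44 and Eng 6 each, against a median of 7 over the 32851 promoters of the table, while the Mcam promoter held 29. RefSeq promoters were matched for 7 of the 10 members, giving 8 promoters because Lepr has 2 starts. Those of Itgav (24), Nt5e (23) and Lepr (18 and 13) were also above the median CpG count. The GC box (GGGCGG) was searched on both strands, with overlapping matches counted, and was in 5 of the 8 member promoters and in 35.7% of all promoters. The E-box (CANNTG) was in 5 of 8 (72.3% of all) and CCAAT in 1 of 8 (37.4% of all). TATAAA (13.6% of all), TGANTCA of AP-1 (7.81%), TGTGGT of RUNX factors (16.8%) and GGAATG of TEAD factors (14.7%) were in none of these windows. These matches describe letters only and are not evidence of binding.

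Levels were compared between genes per kb of region, at the start-site regions. Pdgfrb had the highest mean over the 6 libraries with 3.29 RPM per kb, followed by Itgav (3.26), Ly6a (3.26), Cd44 (3.04), Nt5e (3.01), Thy1 (2.87), Pdgfra (2.86), Mcam (2.53), Lepr (2.09) and Eng (1.88). The ranges over the 6 libraries overlapped for every pair of neighbours in this order, but these ranges include the differences between groups. Compared within libraries, the higher-ranked neighbour was higher in 3 (such as Pdgfrb over Itgav) to 5 (Lepr over Eng) of the 6. The median of the 9750 regions over a protein-coding start site was 3.07 RPM per kb. Eng was at percentile 0.78 and Lepr at percentile 3.2 of those regions, at the low end, although endoglin is 1 of the standard markers of cultured MSCs. The other 8 lay between percentiles 18.2 and 61.6. The order differed between the groups. Itgav (3.61) was first in OldAcetate, where Pdgfrb (3.45) was at rank 3, Lepr (2.03) and not Eng (2.30) was lowest in Young, and Cd44 went from rank 2 in Young to rank 5 in Old and 7 in OldAcetate. Pdgfra stood at rank 6 of 10 in Young (3.25 ± 0.385 RPM per kb, SD, n = 2), at rank 8 in Old (2.15 ± 0.304) and at rank 5 in OldAcetate (3.17 ± 0.186).

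**Figure D2:**
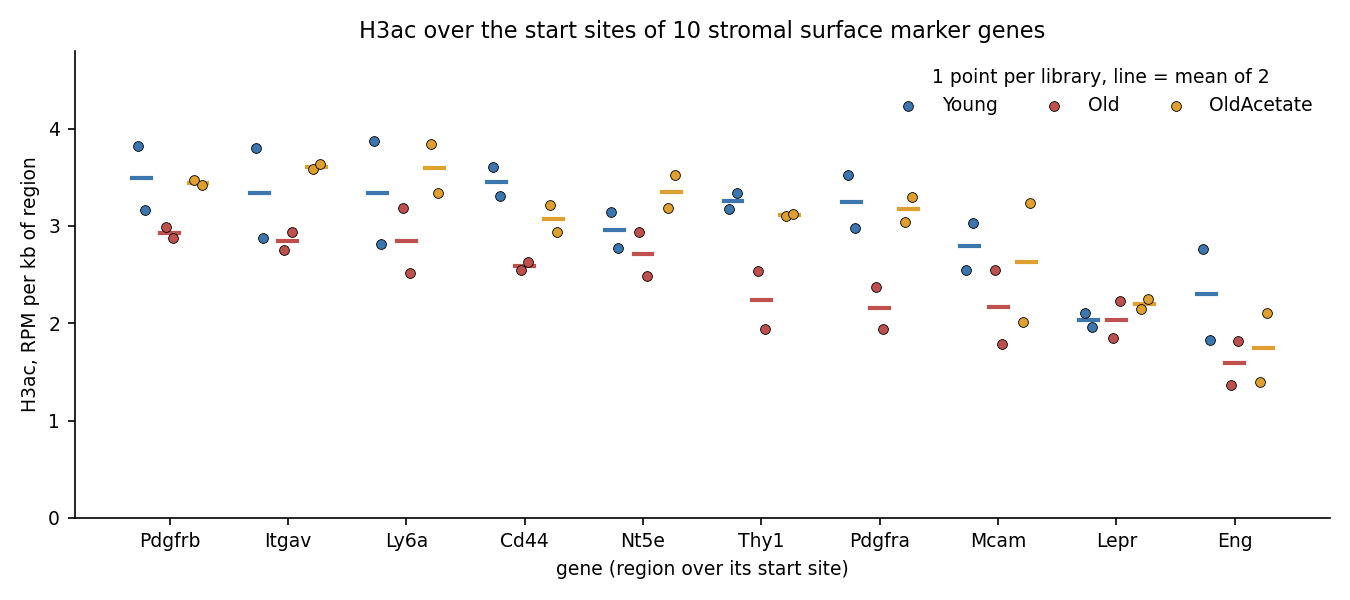
H3ac per kb (RPM per kb of region, vertical axis from 0) in the start-site region of each of the 10 genes, ordered by the mean over 6 libraries. Each point is a library and each short line the mean of the 2 libraries of a group. Pdgfrb, Cd44, Thy1 and Pdgfra have both Old points below all Young and OldAcetate points, and the 6 points of Lepr lie together between 1.85 and 2.25.

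Within genes, the start-site region was the more strongly marked per kb in 5 of 8 cases in all 6 libraries. These were the Pdgfra body region (2.23 RPM per kb), the Nt5e body region (2.02), both Cd44 body regions (2.26 and 1.63) and the region downstream of Pdgfrb (2.10). The Eng body region (1.87 RPM per kb) was below its start-site region in 3 of 6 libraries, and so was the Itgav body region (2.84). The region downstream of Itgav, at 3.65 RPM per kb, exceeded the Itgav start-site region in 4 of 6 libraries, and it lies over the start site of the neighbouring gene Fam171b. The region downstream of Pdgfrb lies 6098 bp from the nearest protein-coding start, that of Csf1r. The Eng body region (chr2:32679001-32695500) runs past the end of Eng, at 32682669, and also overlaps Fpgs, so most of it lies outside Eng.

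Old and Young MSCs were compared to ask how H3ac at the marker genes differed with the age of the donor mice. On the values as given, H3ac fell in Old MSCs at 4 of the 18 member regions, namely the start-site regions of Pdgfra, Thy1 and Cd44 and 1 region in the body of Cd44. This Cd44 body region is coded AC+Y, so its lower value in Old may be partly set by how regions were listed. No member region rose. Of all regions, 9.5% passed the same test as lower in Old, 0.0287% as higher and 9.52% in either direction. Old was lower than Young without overlap of the libraries in 12 of 18 member regions, against 60.2% of all regions, and higher in 0 of 18, against 1.29%. The median log2 fold change was -0.37 over the members and -0.35 over all regions. At an unadjusted p under 0.05 there were 8 of 18 members, against 32% of all regions. After scaling, no member region passed the threshold (limma, 0 of 18, against 0.00819% of all regions), 1 had an unadjusted p under 0.05 (5.54% of all), and edgeR with TMM or RLE factors also called none, with 0 at an unadjusted p under 0.05. Scaled values of the groups did not overlap in 10 members, 5 lower in Old (18.2% of all regions) and 5 higher (15.9%).

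Among the growth factor receptors, the Pdgfra start-site region held 84.6 and 71.5 RPM in Young replicates 1 and 2, 56.9 and 46.5 RPM in Old, and 72.9 and 79.2 RPM in OldAcetate. Both Old libraries were below the other 4. The mean was 78.0 ± 9.24 RPM (SD, n = 2) in Young and 51.7 ± 7.30 RPM (SD, n = 2) in Old, which is 66.3% of Young. The log2 fold change was -0.59 (SE 0.15, limma adjusted p = 0.0132) on the values as given and -0.24 (SE 0.12, adjusted p = 0.894) after scaling, and this was the lowest p of any member region in the scaled comparison. The body region of Pdgfra (chr5:75180001-75187500) went from 19.2 ± 1.12 RPM in Young to 15.3 ± 2.53 RPM in Old, with a log2 fold change of -0.33 as given and 0.02 after scaling, neither called.

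Pdgfrb, the partner receptor, held 138 and 114 RPM over its start site in Young and 108 and 103 RPM in Old. The groups did not overlap, but Old remained at 83.9% of Young, and the log2 fold change was -0.25 as given (adjusted p = 0.161) and 0.10 after scaling (adjusted p = 0.937). The direction thus depends on the scaling. Lepr had the lowest H3ac of all start-site regions in RPM, with 10.5 and 9.80 in Young and 9.24 and 11.1 in Old, and the groups overlapped. Its log2 fold change was -0.0015 as given (95% interval -0.57 to 0.57) and 0.35 after scaling (SE 0.27, adjusted p = 0.928). Between 20 and 32 reads per library stand behind the Lepr values.

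Of the classical panel, Thy1 had 36.5 and 38.4 RPM in Young and 29.1 and 22.3 RPM in Old at chr9:44039001-44050500. Old held 68.6% of Young, with a log2 fold change of -0.55 as given (SE 0.19, adjusted p = 0.0473) and -0.20 after scaling (adjusted p = 0.932). Nt5e, the enzyme that makes adenosine from AMP at the cell surface, had 36.2 and 31.9 RPM in Young and 33.7 and 28.6 RPM in Old over its start site (chr9:88325501-88337000), and the groups overlapped. The log2 fold change of Nt5e was -0.13 as given and 0.22 after scaling, neither called. Eng, a co-receptor for TGF-beta family ligands, had 34.5 and 22.9 RPM in Young and 17.1 and 22.7 RPM in Old over its start site (chr2:32644001-32656500). The higher Old value lay just below the lower Young value, and the fold change of -0.50 as given had an adjusted p of 0.103. The Eng body region (chr2:32679001-32695500), most of which lies beyond the end of Eng, went from 35.8 ± 6.66 to 25.1 ± 2.37 RPM, with -0.49 as given (adjusted p = 0.0743) and -0.14 after scaling.

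Among the adhesion proteins, Cd44, the hyaluronan receptor, had the highest H3ac per region. Its start-site region held 167 and 154 RPM in Young, 118 and 122 RPM in Old and 149.5 and 136 RPM in OldAcetate, with no overlap between Young and Old. The log2 fold change was -0.41 as given (SE 0.12, adjusted p = 0.0238) and -0.06 after scaling (adjusted p = 0.963). The Cd44 body region farthest from the start site (chr2:102820001-102830500) held 34.9 and 23.3 RPM in Young and 17.1 and 17.9 RPM in Old. Its change was -0.69 as given (SE 0.21, adjusted p = 0.0325) and -0.34 after scaling (SE 0.20, adjusted p = 0.898). Without Young replicate 1 it was -0.40 as given and -0.13 after scaling. The Cd44 region between them (chr2:102849501-102857500) had 21.4 RPM in Young replicate 1 but 9.39 RPM in Young replicate 2, against 10.6 and 11.1 RPM in Old, so that its lower mean in Old rested on 1 Young library.

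Mcam held 30.6 and 36.4 RPM in Young and 30.5 and 21.5 RPM in Old, values that all but touched, and its change of -0.37 as given had an adjusted p of 0.173. Itgav, the alpha subunit of receptors for vitronectin and fibronectin, held 91.1 and 69.0 RPM in Young and 66.1 and 70.4 RPM in Old over its start site, with overlap and a change of -0.22 as given and 0.13 after scaling. The small region in the Itgav body (chr2:83758001-83762500) was the only member region with a positive fold change as given (0.02), at 13.1 ± 1.73 RPM in Young and 13.2 ± 1.02 RPM in Old, and after scaling its log2 fold change was 0.37 (SE 0.25, adjusted p = 0.914), which ran from 0.16 to 0.58 on leaving out a Young library. The region downstream of Itgav, over the Fam171b start, had 19.1 and 22.1 RPM in Young and 12.9 and 12.3 RPM in Old, a change of -0.68 as given (adjusted p = 0.0545). Ly6a held 48.4 and 35.1 RPM in Young and 39.8 and 31.4 RPM in Old (chr15:74987501-75000000). The Ly6a groups overlapped, and its change was -0.22 as given and 0.13 after scaling.

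The 4 calls on the values as given were also the 4 made by edgeR on whole reads without scaling factors (10.3% of all regions called). Which of them passed the threshold changed with the libraries in the fit, and so did the share of all regions called. Such a fit leaves 1 library in a group, so its calls carry little weight. Leaving out OldAcetate replicate 1 or 2 changed the estimate of the spread but not the log2 fold changes. The fold changes stayed negative throughout, from -0.73 to -0.45 at Pdgfra, from -0.74 to -0.36 at Thy1, the smallest being without Old replicate 2, and from -0.48 to -0.35 at the Cd44 start-site region.

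**Figure D3:**
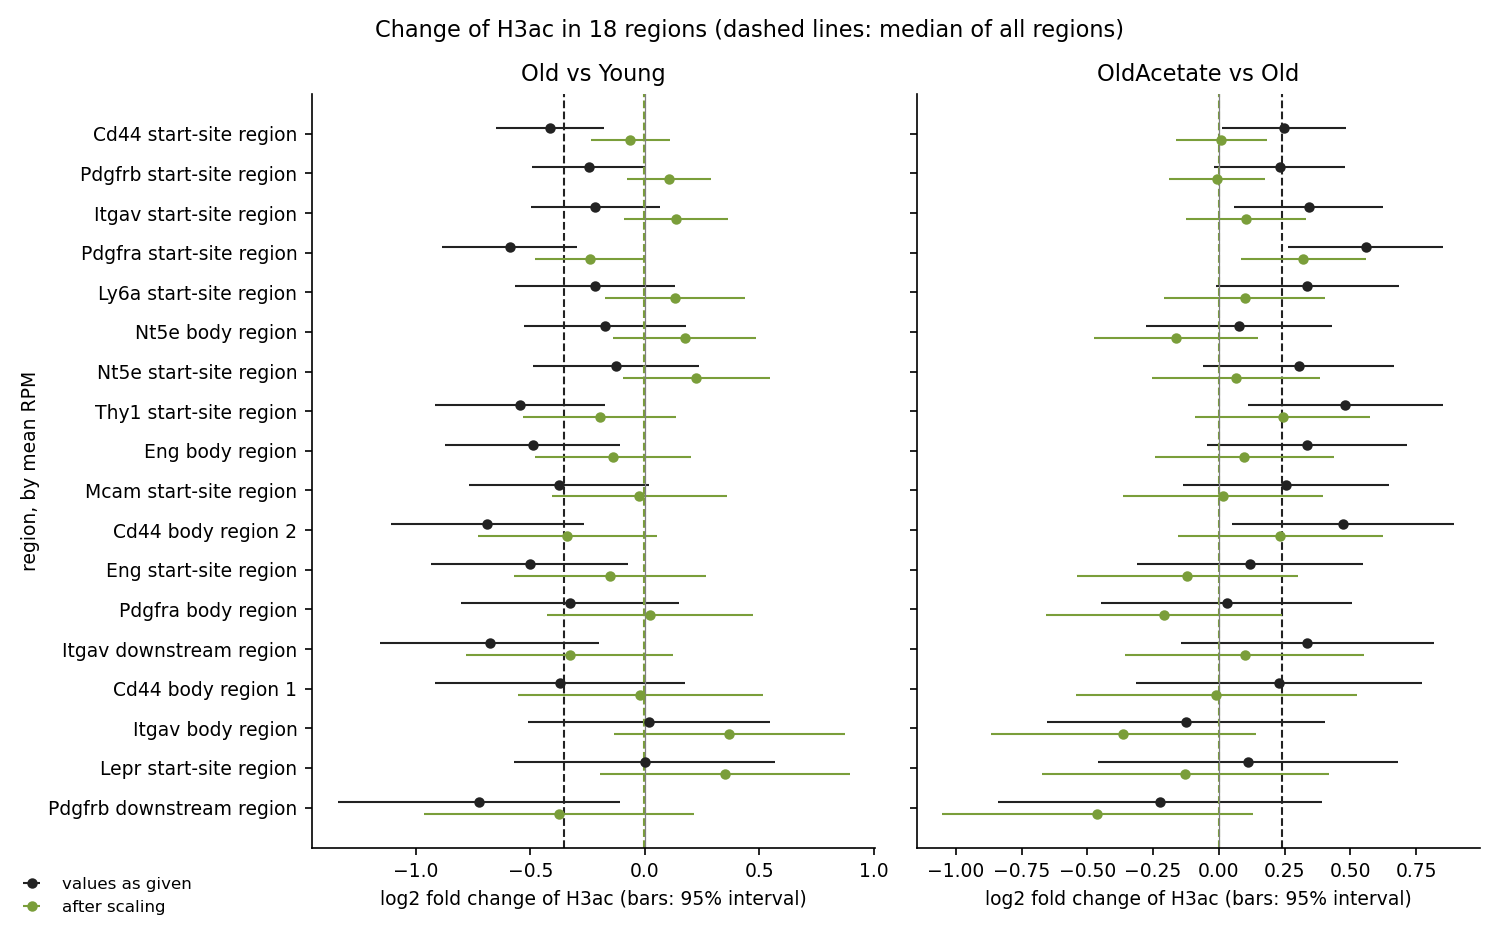
Log2 fold change of H3ac in the 18 member regions (points) with 95% intervals (bars, limma), for Old vs Young (left) and OldAcetate vs Old (right), on the values as given (black) and after scaling (green). Dashed lines are the medians over all 24431 regions: on the values as given, -0.35 on the left and 0.24 on the right. Most intervals include the dashed line of their own colour, and the Pdgfra start-site region lies below it on the left (-0.24 after scaling) and above it on the right (0.32).

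Old MSCs with and without acetate were compared to ask how acetate treatment changed H3ac at the marker genes in old cells. No member region passed the threshold on either scale (limma). On the values as given this was 0 of 18 against 0.311% of all regions, with 5 member regions at an unadjusted p under 0.05 (18% of all). After scaling it was 0 of 18 against 0% of all regions, with 1 at an unadjusted p under 0.05 (6.24% of all), and edgeR called 0 members with TMM, RLE or no factors. OldAcetate was higher than Old without overlap in 11 of 18 member regions, against 47.1% of all regions, and lower in 1, the Itgav body region, against 3.46%. The median log2 fold change as given was 0.25 over the members and 0.24 over all regions, and after scaling 0.01 and 0.00. This comparison shares the 2 Old libraries with Old vs Young, so low values in Old enter both.

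The Pdgfra start-site region again had the lowest p. OldAcetate held 76.1 ± 4.48 RPM (SD, n = 2), which is 147% of Old, with both OldAcetate libraries above both Old libraries. The log2 fold change was 0.56 as given (SE 0.15, limma adjusted p = 0.0565) and 0.32 after scaling (SE 0.12, adjusted p = 0.734). On the values as given it passed the threshold without Old replicate 1 (0.70, adjusted p = 0.0237), without Young replicate 1 (adjusted p = 0.0295) and without Young replicate 2 (adjusted p = 0.0284), but not without Old replicate 2 (0.42, adjusted p = 0.287), OldAcetate replicate 1 (0.62, adjusted p = 0.463) or OldAcetate replicate 2 (0.50, adjusted p = 0.435). Thy1 held 35.6 and 35.9 RPM with acetate, above both Old libraries, at 139% of Old, with 0.48 as given (adjusted p = 0.169) and 0.24 after scaling (adjusted p = 0.877). The Cd44 body region farthest from the start site held 25.2 and 23.8 RPM with acetate and 139.9% of Old, with 0.47 as given (adjusted p = 0.230). That region is coded AC+Y, so its higher value with acetate may be partly set by how regions were listed. The Cd44 start-site region held 119% of Old.

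The other start-site regions ranged from 108% of Old at Lepr to 127% at Itgav, where the OldAcetate libraries (86.0 and 87.2 RPM) lay close together and above both Old libraries. Ly6a held 48.1 and 41.7 RPM with acetate (126% of Old) and Nt5e 36.6 and 40.5 RPM (124%), both without overlap and neither called. Pdgfrb held 125 and 123 RPM (117%), without overlap. Eng (17.5 and 26.3 RPM) and Mcam (24.2 and 38.8 RPM) had OldAcetate libraries on both sides of an Old library, and the distance between their OldAcetate replicates exceeded the difference of the means. The region downstream of Pdgfrb was lower with acetate, at 7.73 and 5.84 RPM against 8.78 and 7.16 RPM in Old, with overlap and a change of -0.22 as given and -0.46 after scaling (SE 0.29, adjusted p = 0.869). Between 14 and 23 reads stand behind these 4 values.

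**Figure D4:**
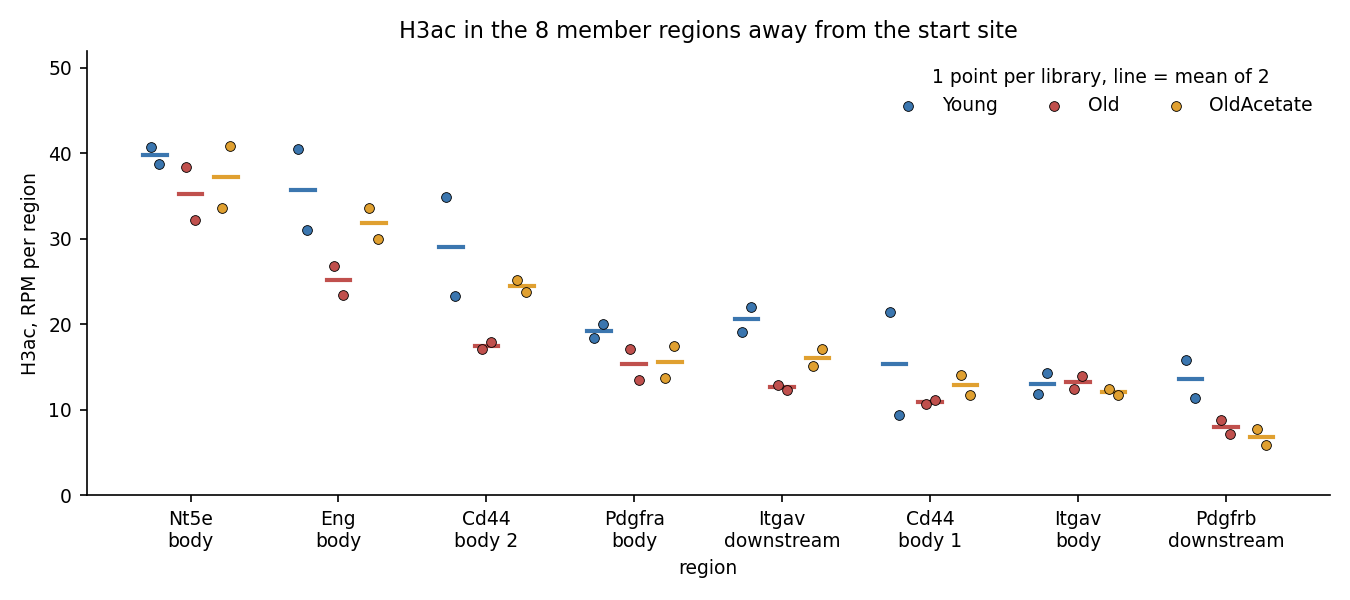
H3ac (RPM per region, vertical axis from 0) in the 8 member regions away from the start sites, ordered by mean. Each point is a library and each short line the mean of the 2 libraries of a group. Both Old points lie below both Young points in every region shown but the Cd44 body region 1 and the Itgav body region. Such a difference was present in 60.2% of all regions. The Pdgfrb downstream region has its Old and OldAcetate points between 5.84 and 8.78 RPM, below both Young points.

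OldAcetate and Young MSCs were compared to ask what distance remained between treated old cells and young cells. No member region passed the threshold on either scale (limma, 0% of all regions on both). After scaling 2 of 18 had an unadjusted p under 0.05 (5.08% of all), and on the values as given 1 had (6.1% of all), while edgeR called 0 members. OldAcetate was lower than Young without overlap in 5 of 18 member regions (29.8% of all) and higher in 2 (7.6% of all), Lepr and the Nt5e start-site region. The lowest p belonged to the region downstream of Pdgfrb, at 13.6 ± 3.08 RPM in Young (SD, n = 2) and 6.78 ± 1.34 RPM in OldAcetate (SD, n = 2), 49.8% of Young. Its log2 fold change was -0.84 after scaling (SE 0.29, adjusted p = 0.964). It was followed by the Itgav start-site region, at 0.24 after scaling, and the Nt5e start-site region, at 0.29 after scaling, both with an adjusted p of 0.964. The Pdgfra start-site region held 97.5% of Young, with a change of -0.03 as given and a 95% interval from -0.16 to 0.32 after scaling.

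Summed over its regions, each gene gave 1 value per library, listed here as the Old mean in percent of Young and the OldAcetate mean in percent of Old. Thy1 (68.6% and 139%), Pdgfra (68.9% and 137%) and Eng (69.8% and 119%) had the lowest Old sums relative to Young, followed by Cd44 (72.5% and 121%), Mcam (77.6% and 121%), Pdgfrb (81.5% and 115%), Itgav (82.7% and 122%), Ly6a (85.2% and 126%) and Nt5e (90.1% and 114%). Lepr alone was level, at 100.2% and 108%. The difference at Eng, -19.4 RPM in Old vs Young, was -8.89 RPM without Young replicate 1 and -30.0 RPM without Young replicate 2. The Eng sum includes the body region, most of which lies beyond the end of Eng. The sums of Eng, Cd44 and Pdgfrb include regions coded Y or AC+Y. Their lower Old sums may thus be partly set by how regions were listed. These sums are unscaled, and the median log2 fold change as given was -0.35 over all regions. The exact two-sided permutation test of 2 libraries against 2 cannot give a p below 0.333, so none of these 20 differences could reach 0.05. In Old vs Young 7 genes (Pdgfra, Pdgfrb, Thy1, Eng, Cd44, Mcam and Itgav) had that smallest value, which means no overlap of the groups. Of all single regions, 60.2% were lower in Old without overlap and 1.29% higher. Among these genes, Pdgfrb and Itgav turned to a positive difference after division by the scaling factors.

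Around the 10 genes, 39 further regions lay within 100 kb. Of these, 1 was called in Old vs Young after scaling, against 0.00819% of all regions. It was higher in Old with a log2 fold change of 0.85 (adjusted p = 0.00360, limma). It lies at chr15:75084501-75088000, 86470 bp from Ly6a and 23970 bp from the nearest protein-coding start, that of Ly6c2, in the Ly6 gene cluster. Its mean was 63.6 RPM in only 3.5 kb, where the median over all regions was 2.70 RPM per kb. The source of this unusually high level was not tested. The other regions within 100 kb of Ly6a had scaled changes of 0.09, 0.19 and 0.33 and none was called. The regions over the start sites of Ly6e and Ly6c1 were the only ones of the 7 other Ly6 genes examined to be listed, and Ly6c2, Ly6d, Ly6g, Ly6h and Ly6k had no region.

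Partner genes of the markers were examined with the same rule. After scaling limma called none of their regions in any comparison, with 1 PDGF ligand region and 1 hyaluronan synthase region at an unadjusted p under 0.05 in Old vs Young. On the values as given all calls were in Old vs Young and lower in Old, beside the 9.5% of all regions. The PDGF ligands had regions at 4 of 4 genes, and 2 of their 7 regions were called, both at Pdgfa, which went from 64.7 ± 14.6 to 45.9 ± 2.09 RPM over its start site. The beta subunits that pair with Itgav had 16 regions at 5 of 5 genes, with 2 called, both at Itgb5, whose start-site region went from 44.8 ± 2.45 to 28.9 ± 3.59 RPM. Of the TGF-beta receptors that work with Eng, Acvrl1 had 1 call (16.6 ± 0.312 to 9.49 ± 1.61 RPM) among 5 regions at 3 of 3 genes. Of 5 ectonucleotidase and adenosine genes around Nt5e, Adora2a had the only call among 6 regions (15.6 ± 1.23 to 8.76 ± 3.95 RPM). Of 4 leptin signalling genes, Socs3, a feedback inhibitor of cytokine receptors, had the only call among 5 regions (296 ± 22.9 to 217 ± 9.15 RPM). The 3 hyaluronan synthases that make the ligand of Cd44 had 6 regions and no call, and the regions with the lowest p after scaling were those over the start site and in the body of Has1, with log2 fold changes of 0.30 and 0.18.

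The median log2 fold change of Old vs Young as given was -0.42 for the PDGF ligands, -0.44 for the beta subunits, -0.42 for the TGF-beta receptors, -0.41 for the adenosine genes, -0.51 for leptin signalling, -0.17 for the hyaluronan synthases and -0.09 for the 2 regions of the Ly6 list, beside -0.35 over all regions.

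A further 18 stromal surface markers gave 29 regions at 17 genes, Ngfr having none. On the values as given 6 were called lower in Old (9.5% of all regions), at Cspg4, Cd9, Alcam, Icam1, Cd248 and Cd63. After scaling 0 were called in Old vs Young (0.00819% of all regions), and 5 had an unadjusted p under 0.05 (limma, 5.54% of all regions). Cspg4 (NG2), a pericyte proteoglycan, went from 128 ± 9.66 to 80.2 ± 8.21 RPM over its start site, with a change of -0.67 as given (adjusted p = 0.00427) and -0.32 after scaling (adjusted p = 0.789), and the tetraspanin gene Cd9 from 173 ± 12.1 to 119 ± 3.89 RPM. The median change of the list was -0.38 as given. Its median start-site level was 2.87 RPM per kb, and that of the 10 members 2.94.

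Markers of other cell types were listed to check the labelled cell type. Of 8 hematopoietic genes, 5 had no region, namely Ptprc, Itgam, Adgre1, Cd3e and Laptm5, and of 8 endothelial genes Cdh5, Tek and Emcn had none. The table lists called regions only, so this does not give a level of 0. The 3 hematopoietic regions, at Spi1, Csf1r and Cd68, summed to 70.7 to 77.6 RPM in Young, 55.3 to 60.1 RPM in Old and 58.5 to 70.1 RPM in OldAcetate, and the 9 endothelial regions to 127 to 129 RPM, 86.7 to 103 RPM and 113 to 118 RPM. Both sums were lower in Old than in Young, where 92.2% of all regions also had a negative log2 fold change as given, and their part in the differences at the members was not tested. Only 1 of these regions was called as given, in an intron of Pecam1 (5.74 ± 1.19 RPM in Young and 1.03 ± 0.798 RPM in Old). Very few reads stand behind its Old values, as 1 read is 0.462 RPM in Old replicate 1 and 0.398 RPM in Old replicate 2. The hematopoietic regions with the lowest scaled p were at Csf1r and Cd68, with log2 fold changes of -0.34 and 0.18, neither called. Of the lineage markers, the osteoblast factor Sp7 had 1 call (log2 fold change -0.48 as given, adjusted p = 0.0229) among 2 regions of 4 osteoblast genes, Bglap and Ibsp having no region, and the 5 regions at 4 of 4 adipocyte genes had none, those with the lowest scaled p being at Plin1, with log2 fold changes of 0.50 and 0.28. The median changes as given in Old vs Young were -0.36 for the 3 hematopoietic regions given here, -0.38 for the endothelial, -0.29 for the osteoblast and -0.35 for the adipocyte regions.

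The depth limits what can be said of the smaller regions. Counting error in the library with the fewest reads was 6.25% of the value at the Cd44 start-site region, 13.5% at the median member region and 26.7% at the region downstream of Pdgfrb, and these percentages cover counting error only.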

How the data were processed

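H3ac CUT&RUN was measured in 6 libraries. The submitters' processing notes name Bowtie2, Picard and the mm10 build, without their roles; versions, the region caller and any use of the yeast DNA spiked into the reactions are not given in the sources used here. The authors deposited 1 table of values, read here as RPM, in 24431 regions shared by all libraries. Its name says RPKM, but region length did not enter the values. Of the values, 100% were whole multiples of 1 step per library (tolerance 0.01), taken as 1 read. Whole reads were recovered from this step, and library totals too, on the assumption that no other factor entered the values.

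Differences were tested on the whole table with limma 3.58.1 in R 4.3.3 (eBayes with trend and robust) on log2(RPM + 0.5), which understates changes of low regions, after subtracting from each library its median deviation from the region means, and without this scaling. All 6 libraries entered 1 fit, with Benjamini-Hochberg adjustment over all regions and a threshold of 0.05. Calls and adjusted p-values are from limma unless edgeR 4.0.16, run on the recovered whole reads, is named. The tests were also run on simulated data, whose outcome is not given here. A lack of calls with so few libraries is not evidence that no change was present.

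Alternatives were pseudocounts of 0.1 and 1, no scaling, edgeR, removal of the lowest 25% of regions, only the compared groups, the replicate number as a block, extensions of 0 and 10 kb and leaving out each library. Leaving out libraries without scaling was chosen after seeing the data. The members and lists were chosen with earlier results of these data known. Named are all 10 genes with their start-site regions and, per gene, the region with the most RPM; the 3 member regions with the lowest p in each comparison; and, of the other lists, genes past the threshold or else the 2 regions with the lowest p. Other regions given were chosen after their values were seen. Some genes of the marker lists are not reported here. RefSeq promoters were read from a table of GRCm38.p6. Python 3.11.15 and matplotlib 3.10.9 were used for the plots.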

Additional observations from a re-analysis of the deposited data

How the results depend on the processing

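On scaled values no member region passed the threshold in any comparison with pseudocounts of 0.1 or 1, without the lowest 25% of regions (17 members left, the region downstream of Pdgfrb being removed), with edgeR TMM or RLE factors, with only the compared groups, with extensions of 0 kb (16 regions) or 10 kb (19 regions), or without any single library. Without scaling, 4 member regions passed in Old vs Young with limma and 4 with edgeR. Leaving out 1 library from the values as given moved this count between 0 and 6, and that of OldAcetate vs Old between 0 and 1.

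With the replicate number as a block, 0 member regions were called in each comparison. Libraries with the same number did not deviate together (r = 0.01 for Young and Old, -0.03 for Young and OldAcetate, -0.04 for Old and OldAcetate, across regions). The median region held only 31 (Old replicate 1) to 56 (Young replicate 1) reads, and counting error lowers such correlations. Whether libraries were paired therefore cannot be told from these values.

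The direction of several uncalled changes turned when the shift shared by all regions was left in. In Old vs Young, limma without scaling and edgeR without factors gave -0.22 and -0.24 at the Itgav start-site region, -0.22 and -0.25 at Ly6a, -0.18 and -0.18 at the Nt5e body region, -0.13 and -0.14 at its start-site region, and -0.25 and -0.26 at the Pdgfrb start-site region, and limma gave -0.0015 at Lepr. In OldAcetate vs Old they gave 0.12 and 0.10 at the Eng start-site region, 0.11 and 0.10 at Lepr, 0.075 and 0.074 at the Nt5e body region, and 0.23 and 0.23 at the Pdgfrb start-site region. Without scaling limma also gave -0.33 (Old vs Young) and 0.03 (OldAcetate vs Old) at the Pdgfra body region, and 0.23 (OldAcetate vs Old) at the Cd44 body region nearest the start site. In OldAcetate vs Young it turned the start-site regions of Pdgfra (-0.03), Pdgfrb (-0.014) and Thy1 (-0.07) and the body regions of Nt5e (-0.10) and Itgav (-0.11). Dividing the summed levels by the scaling factors turned the difference to 5.25 RPM at Pdgfrb, 9.61 RPM at Nt5e, 3.34 RPM at Ly6a and 6.02 RPM at Itgav in Old vs Young, and to -1.03 RPM at Lepr, -3.01 RPM at Pdgfrb and -2.32 RPM at Nt5e in OldAcetate vs Old. These reversals follow from the scaling itself, and none of these changes was called in either form.

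Leaving out each library moved the scaled log2 fold change of start-site regions across 0 in Old vs Young for Cd44 (-0.15 to 0.019), Eng (-0.41 to 0.11), Ly6a (-0.015 to 0.28) and Mcam (-0.23 to 0.18). In OldAcetate vs Old it did so for Cd44 (-0.074 to 0.094), Eng (-0.42 to 0.18), Itgav (-0.0026 to 0.21), Lepr (-0.32 to 0.063), Ly6a (-0.0071 to 0.20), Mcam (-0.33 to 0.36), Nt5e (-0.018 to 0.15) and Pdgfrb (-0.038 to 0.026). The start-site regions of Pdgfra and Thy1 kept their direction without each library in turn in both comparisons. Pdgfra ran from -0.32 to -0.16 and from 0.24 to 0.40, and Thy1 from -0.33 to -0.068 and from 0.11 to 0.37. Those of Itgav, Lepr, Nt5e and Pdgfrb kept theirs in Old vs Young only. The summed levels crossed 0 at Lepr (-0.92 to 0.97 RPM in Old vs Young, -0.13 to 1.76 RPM in OldAcetate vs Old), Ly6a (-12.8 to 0.46 RPM in Old vs Young) and Mcam (-1.80 to 12.8 RPM in OldAcetate vs Old). They moved by over 1.5 times with the same sign at Eng (-30.0 to -8.89 RPM), Pdgfrb (-39.8 to -11.9 RPM), Itgav (-28.0 to -11.3 RPM), Mcam (-12.0 to -2.97 RPM) and Nt5e (-13.0 to -1.72 RPM) in Old vs Young, and at Ly6a (5.13 to 13.5 RPM), Nt5e (3.67 to 14.9 RPM) and Thy1 (6.62 to 13.5 RPM) in OldAcetate vs Old.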
